A study of Mus musculus with 4 samples.

Results

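Transcripts that mark blood-borne cells were examined in the hippocampus of control mice and of mice with perioperative neurocognitive disorder (PND mice). The genes were chosen by name, and all 9 were found among the 29300 genes in the table of counts. The neutrophil genes are Ltf, Ngp, S100a8 and S100a9, and the erythroid genes are Hba-a1, Hba-a2, Hbb-bs, Hbb-bt and Alas2. They were chosen with the levels of PND and control mice in these same libraries known, so their differences between the groups are described and carry no test. All 4 neutrophil genes and 3 of the 5 erythroid genes had enough counts to enter the fit across all genes. Hba-a2 and Hbb-bt did not, and are given by their counts.

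Every mouse was a male C57BL/6 mouse of 7 to 8 months, and all received isoflurane anesthesia and tramadol. The 2 PND mice also underwent a tibial fracture fixed with an intramedullary nail, whereas the 2 control mice had no fracture. The hippocampus was taken on day 1 after the operation, so each mouse gave 1 library of poly(A) RNA. The methods name no perfusion of these mice before the hippocampus was removed, and no group without anesthesia was sequenced.

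The libraries held 15763432 to 18573386 counts and 24238 to 25324 detected genes, and 1 count stood for 0.0546 to 0.0626 CPM, the count scaled to a common library total. Replicate mice differed by more than sampling noise, with a chi-square per degree of freedom of 13.2 in control and 8.35 in PND mice. Neuronal genes of the hippocampus were abundant in all libraries, as Camk2a lay between 4218 and 5114 CPM. Of the 17144 genes tested, 6.75% were called higher and 2.25% lower in PND mice (9.01% in either direction). A call needs an adjusted p-value under 0.05 (quasi-likelihood test of edgeR, Benjamini-Hochberg adjusted) and a 1.5-fold rise or a fall to 0.67-fold or less. The median log2 fold change of all genes fell from 0.59 in the eighth of genes with the lowest GC content to -0.34 in the eighth with the highest. Control mouse 1 stood apart in genes of the choroid plexus, the tissue that makes cerebrospinal fluid, and PND mouse 2 in genes of the meninges. These values are given beside the results below.

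Neutrophils are short-lived leukocytes of the blood that carry preformed granules. Ltf encodes lactoferrin, an iron-binding protein of the secondary granules, and Ngp encodes neutrophilic granule protein, which is stored in the same granules. S100a8 and S100a9 encode the subunits of calprotectin, a calcium- and zinc-binding protein that fills the cytosol of neutrophils and is also made by monocytes. Granule genes are transcribed mainly in the bone marrow, and circulating neutrophils retain part of their mRNA. Hemoglobin is built of alpha chains, from Hba-a1 and Hba-a2, and beta chains, from Hbb-bs and Hbb-bt. Reticulocytes, the young red blood cells, still hold globin mRNA, and neurons and other brain cells can hold a little of it too. Alas2 encodes the erythroid form of the first enzyme of heme synthesis. In a whole tissue, fewer cells of a type and less RNA per cell cannot be told apart.

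All positions are those of mm10. Ltf (ENSMUSG00000032496) lies on the plus strand of chromosome 9 at 111019271 to 111042767, and Ngp (ENSMUSG00000032484) on the same strand and chromosome at 110419747 to 110423012. S100a8 (ENSMUSG00000056054) lies on the plus strand of chromosome 3 at 90668978 to 90670035. S100a9 (ENSMUSG00000056071) lies on the minus strand of chromosome 3 at 90692632 to 90695721. The alpha genes are on the plus strand of chromosome 11, with Hba-a1 (ENSMUSG00000069919) at 32283511 to 32284465 and Hba-a2 (ENSMUSG00000069917) at 32296489 to 32297298. The beta genes are on the minus strand of chromosome 7, with Hbb-bs (ENSMUSG00000052305) at 103826534 to 103828096 and Hbb-bt (ENSMUSG00000073940) at 103812524 to 103813996. Alas2 (ENSMUSG00000025270) lies on the plus strand of the X chromosome at 150547375 to 150570638. Its exons overlap Apex2 and Mir3620 on the opposite strand, so reads of these genes are hard to assign where strand is not used. No exon of the other 8 genes overlaps another gene.

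The globin genes come in near-identical pairs, which bears on how far their counts can be read apart. The coding sequences of Hba-a1 and Hba-a2 are both 426 nt long and differ at 1 base, C381T, and those of Hbb-bs and Hbb-bt are both 441 nt long and differ at 1 base, C417T. Positions are counted from 1 at the first base of the start codon, with the base of Hba-a1 or Hbb-bs written first. The stretches around these bases, from the GENCODE M21 transcripts, cover coding bases 361 to 400 of the alpha pair and 397 to 436 of the beta pair, and the capital letter marks the base that differs.
Hba-a1: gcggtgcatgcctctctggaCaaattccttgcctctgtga
Hba-a2: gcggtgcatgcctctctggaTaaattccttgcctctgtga
Hbb-bs: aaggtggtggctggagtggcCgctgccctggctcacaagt
Hbb-bt: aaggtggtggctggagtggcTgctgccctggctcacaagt
Of all 75-nt windows of its transcripts, 67.9% of those of Hba-a1, 84.6% of Hba-a2, 51.5% of Hbb-bs and 56.6% of Hbb-bt also occur in transcripts of another gene. The split of reads within a pair is therefore uncertain, and the pairs were summed. No such window of the 4 neutrophil genes or of Alas2 is shared. How reads that match both copies were counted is not known, and a sum does not restore reads that were left out. Ratios of beta to alpha counts, or of neutrophil to globin counts, may depend on it.

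The 4 neutrophil genes had their lowest and highest level in the same mice, so the sequences directly upstream of their starts are shown. They are 120 bases long and were taken from RefSeq for GRCm38.p6, and all 4 genes had an entry. They were searched on both strands for TTGCNNAA, a core of the sites bound by C/EBP factors, which include the regulators of secondary granule genes in neutrophil precursors. A match is printed in capitals.
Ltf, chr9:111019151-111019270, plus strand: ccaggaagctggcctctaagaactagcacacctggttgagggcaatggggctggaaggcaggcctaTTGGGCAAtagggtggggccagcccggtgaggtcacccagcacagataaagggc
Ngp, chr9:110419627-110419746, plus strand: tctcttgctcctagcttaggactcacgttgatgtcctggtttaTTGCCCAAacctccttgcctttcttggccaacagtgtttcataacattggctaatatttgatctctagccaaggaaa
S100a8, chr3:90668858-90668977, plus strand: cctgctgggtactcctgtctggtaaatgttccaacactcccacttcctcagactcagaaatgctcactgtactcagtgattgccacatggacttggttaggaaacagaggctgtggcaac
S100a9, chr3:90695722-90695841, minus strand: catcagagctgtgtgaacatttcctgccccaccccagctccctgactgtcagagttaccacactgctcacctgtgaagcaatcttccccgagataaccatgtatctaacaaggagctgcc
The granule genes Ltf and Ngp each hold 1 match, and the windows of S100a8 and S100a9 hold none. Among 32817 windows of the same length upstream of RefSeq starts, 1364 (4.2%) hold the motif.

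The neutrophil transcripts were low and uneven between mice. All 4 genes were lowest in PND mouse 1 and highest in control mouse 2. Ltf was the only one of the 4 that lay below both control mice in both PND mice, whereas 32.2% of all genes tested lay so. Since the genes were chosen on this contrast, nothing is read from that count.

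Ltf had 45 and 63 counts in control mice and 8 and 24 in PND mice, or 2.61 and 3.44 CPM against 0.501 and 1.42 CPM. The groups did not overlap, and the PND mice differed from each other 2.83-fold (95% exact interval 1.23 to 7.30). The mean was 3.03 ± 0.589 CPM in control mice and 0.960 ± 0.650 CPM in PND mice (SD, n = 2 each), with a log2 fold change of -1.63 (SE 0.45). These intervals, like all exact intervals given here, cover counting error only.

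Ngp had 38 and 55 counts in control mice and 10 and 39 in PND mice, or 2.2 and 3.0 CPM against 0.626 and 2.31 CPM. PND mouse 2 therefore lay between the control mice, and its level was 3.69-fold that of PND mouse 1 (1.81 to 8.28). The log2 fold change was -0.81 (SE 0.52).

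S100a8 had 15 and 59 counts in control mice and 2 and 34 in PND mice, or 0.870 and 3.22 CPM against 0.125 and 2.01 CPM. Both groups were split, since control mouse 2 was 3.71-fold above control mouse 1 (2.08 to 7.04) and PND mouse 2 was 16.1-fold above PND mouse 1 (4.12 to 138.0). The log2 fold change was -0.92 with an SE of 0.91. Its partner S100a9 had 54 and 84 counts in control mice and 13 and 58 in PND mice, or 3.13 and 4.59 CPM against 0.814 and 3.43 CPM. PND mouse 2 again lay between the control mice, and the log2 fold change was -0.85 (SE 0.54).

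**Figure D1:**
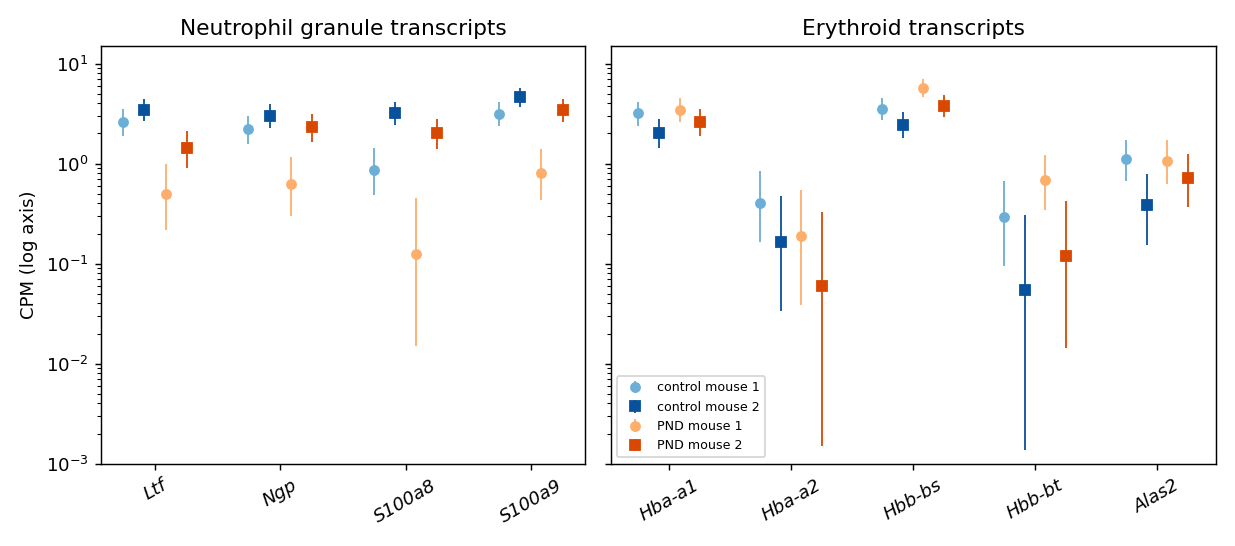
Level of each of the 9 genes in CPM on a log axis for the 2 control mice (blue) and the 2 PND mice (orange), with bars for the 95% exact Poisson interval of the count. PND mouse 1 is the lowest of the 4 mice for each neutrophil gene, at 0.501 CPM for Ltf and 0.125 CPM for S100a8, while the erythroid genes overlap between the groups apart from Hbb-bs.

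Per kilobase of transcript, S100a9 had the highest mean level of the neutrophil genes over the 4 mice, at 5.73 CPM per kb. It was followed by S100a8 at 2.24, Ngp at 1.67 and Ltf at 0.578 CPM per kb. S100a8 exceeded Ngp in control mouse 2 (4.64 against 2.46) and PND mouse 2 (2.90 against 1.89). The reverse held in control mouse 1 (1.25 against 1.80) and PND mouse 1 (0.180 against 0.512). Within each mouse, S100a9 made up 32.2% to 39.4% of the counts of the 4 genes and Ngp 21.1% to 30.3%. S100a8 varied most, from 6.06% in PND mouse 1 and 9.87% in control mouse 1 to 21.9% in PND mouse 2 and 22.6% in control mouse 2.

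The summed level of the 4 neutrophil genes was 8.81 and 14.3 CPM in control mice and 2.07 and 9.17 CPM in PND mice. Control mouse 2 was highest and PND mouse 1 lowest, and PND mouse 2 (7.78 to 10.7) and control mouse 1 (7.47 to 10.3) had overlapping counting intervals. The PND mice differed 4.44-fold (3.03 to 6.68) and the control mice 1.62-fold (1.32 to 1.99). The log2 ratio of the group means was -1.04, against an SD of 1.13 between replicates on the log2 scale, so the difference was smaller than the spread between mice.

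The size of the difference rested on PND mouse 1. Without it, the log2 fold change was -1.11 for Ltf, -0.19 for Ngp, -0.06 for S100a8 and -0.19 for S100a9, and the log2 ratio of the sums was -0.35. Without PND mouse 2, these were -2.58, -2.04, -3.97 and -2.24, and the ratio of the sums was -2.48. Without control mouse 2, S100a8 turned to 0.32, while the other 3 remained below 0. Of the 4 genes, Ltf kept the narrowest range over these fits, from -2.58 to -1.11. The GC content of their transcripts ran from 44.2% for S100a8 and 45.1% for S100a9 to 50.2% for Ngp and 51.0% for Ltf, and fitting each library's trend with transcript length and GC content gave log2 fold changes of -1.55 for Ltf, -0.79 for Ngp, -1.28 for S100a8 and -1.15 for S100a9.

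**Figure D2:**
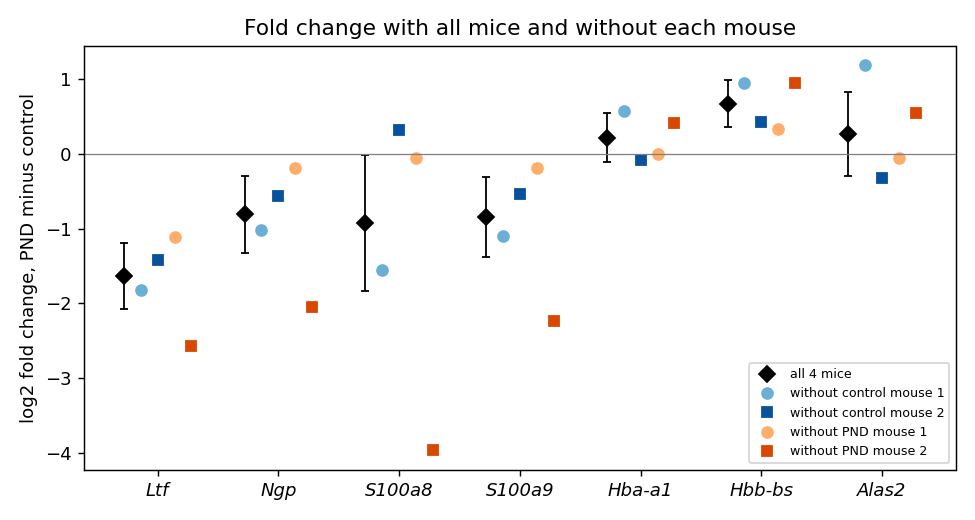
Log2 fold change (PND minus control) of the 7 genes in the fit, with all 4 mice (diamonds, bars are 1 SE) and with each mouse left out in turn (circles and squares). The neutrophil genes move furthest without PND mouse 2, where S100a8 reaches -3.97, and the points of Hba-a1 and Alas2 fall on both sides of 0.

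A list of 25 other neutrophil genes was set beside these 4, of which 24 were in the table and 9 had enough counts to be tested. None was called in either direction by edgeR, 2 had an unadjusted p-value under 0.05, and DESeq2 called 1, Pglyrp1, lower. The median log2 fold change of the 9 was -0.58, against 0.01 for all genes tested. Of the 24 genes, 11 were lowest in PND mouse 1 alone, and 10 had 0 counts there, against 5, 2 and 1 genes with 0 counts in control mouse 1, control mouse 2 and PND mouse 2. Over all genes, 24620 were detected in PND mouse 1, whose library was the smallest, against 24238, 24519 and 25324 in the same order. Some of the 24 genes, such as Fcnb and Ly6g, had at most 3 counts in any mouse.

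Lcn2, which encodes the secondary granule protein lipocalin-2 and is also made by reactive astrocytes and endothelial cells, had 7.71 and 6.28 CPM in control mice and 1.25 and 7.46 CPM in PND mice. PND mouse 2 was 5.95-fold above PND mouse 1 (3.70 to 10.1), and the log2 fold change was -0.66 (SE 0.60, adjusted p = 0.46 by edgeR). Camp, the cathelicidin of the secondary granules, had 12 and 9 counts in control mice and 0 and 6 in PND mice. Retnlg had 4 and 15 counts in control mice and 0 and 8 in PND mice. These 3 genes shared with the members the low level in PND mouse 1.

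Pglyrp1, a peptidoglycan-binding granule protein, had 9.39 and 11.3 CPM in control mice and 4.13 and 7.28 CPM in PND mice. The groups did not overlap, and its log2 fold change of -0.85 (SE 0.27) had an adjusted p-value of 0.063 by edgeR. Cd177 had 11 and 16 counts in control mice and 2 and 7 in PND mice. Its log2 fold change was -1.45 (SE 0.59, adjusted p = 0.122 by edgeR). Csf3r, the receptor of the granulocyte growth factor G-CSF, was level over the 4 mice, at 10.7 and 8.90 CPM against 10.3 and 10.1 CPM. Microglia also express Csf3r. Anxa1 went the other way, with 1.85 and 2.19 CPM in control mice and 2.19 and 5.33 CPM in PND mice (log2 fold change 0.90, SE 0.45, adjusted p = 0.189 by edgeR).

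Several genes that define neutrophils closely were near 0. Ly6g had 1 and 3 counts in control mice and 0 and 1 in PND mice, and Cxcr2 had 3 and 3 counts against 0 and 6. The primary granule proteases Elane and Ctsg had at most 3 counts in any mouse. The third such protease, Prtn3, had 12 and 25 counts in control mice and 13 and 6 in PND mice, and was lowest in PND mouse 2. Its log2 fold change was -0.84 (SE 0.56, adjusted p = 0.317 by edgeR). The exons of Prtn3 overlap Plppr3 on the opposite strand, so its reads are hard to assign where strand is not used. Mpo had 6 and 5 counts in control mice and 8 and 10 in PND mice. Most counts of the 24 other genes came from Csf3r, Pglyrp1 and Lcn2.

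**Figure D3:**
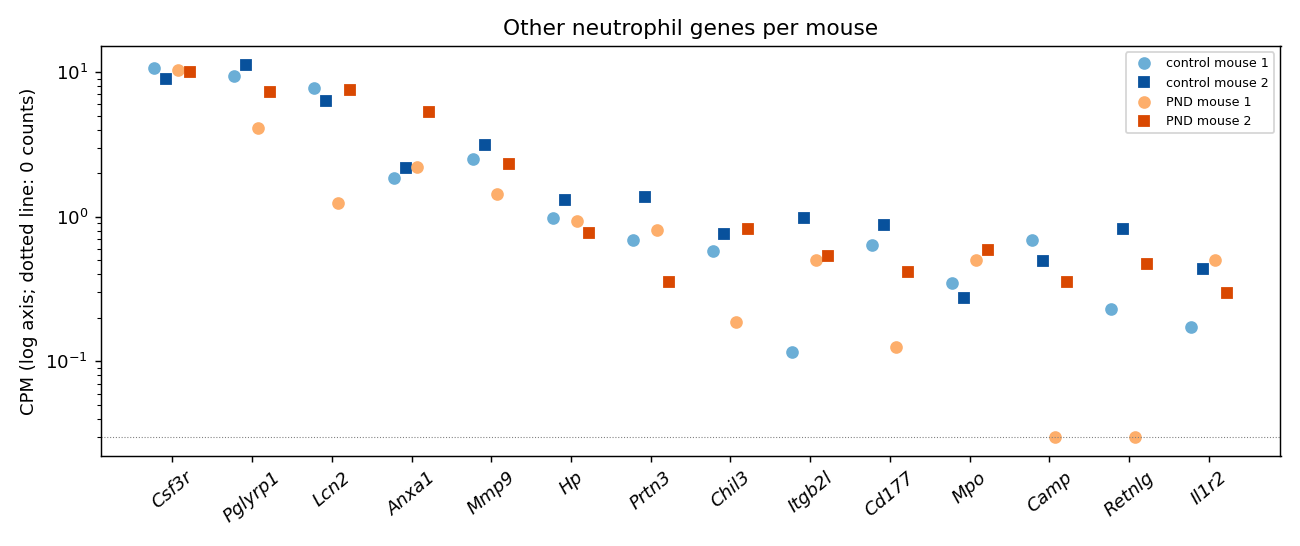
CPM on a log axis of the 14 other neutrophil genes with at least 15 counts over the 4 mice, ordered by mean level, with control mice in blue, PND mice in orange and 0 counts drawn on the dotted line at 0.03 CPM. PND mouse 1 lies below the other mice for Lcn2 (1.25 CPM) and Pglyrp1 (4.13 CPM) and at 0 for Camp and Retnlg, while Csf3r is level.

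Signals that draw neutrophils into tissue were examined with 16 genes for chemokines, cytokines and endothelial adhesion molecules, of which 13 were in the table and 4 were tested. None was called by edgeR or DESeq2, and none had an unadjusted p-value under 0.05, although edgeR called Vcam1 higher with the replicate number as a block. Their summed level was 31.4 and 36.9 CPM in control mice and 30.7 and 81.2 CPM in PND mice, and 8 of the 13 genes were highest in PND mouse 2. Vcam1, an endothelial adhesion molecule, had 14.8 and 25.5 CPM in control mice and 22.5 and 48.3 CPM in PND mice. Lrg1, which is made by vessels and neutrophils, had 9.33 and 4.92 CPM against 3.44 and 16.9 CPM.

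E-selectin (Sele) catches rolling neutrophils on the vessel wall, and it had 6 and 4 counts in control mice and 1 and 44 in PND mice. Il1b, which encodes the cytokine interleukin-1 beta, had 8 and 10 counts against 0 and 14. PND mouse 1 was thus low, and PND mouse 2 high, in Sele and Il1b as well as in Lrg1. The chemokine gene Cxcl5 went another way, with 18 and 7 counts in control mice and 16 and 4 in PND mice, and so did Ccl3, with 3 and 7 counts against 7 and 4. With PND mouse 1 left out, Sele, Icam1, Vcam1 and Lrg1 were called higher in the remaining PND mouse, whose spread is then assumed to be that of the control mice.

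The hemoglobin transcripts showed a smaller difference between mice than the neutrophil transcripts, and in another order. Only Hbb-bs, among the 5 erythroid genes, lay above both control mice in both PND mice, as did 33.2% of all genes tested. The genes were chosen on this contrast, so nothing is read from that count either.

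Hbb-bs had 61 and 45 counts in control mice and 92 and 64 in PND mice, or 3.54 and 2.46 CPM against 5.76 and 3.79 CPM. The gap between control mouse 1 and PND mouse 2 was small, and their counting intervals (2.71 to 4.54 and 2.92 to 4.84 CPM) overlapped. The mean was 3.0 ± 0.762 CPM in control mice and 4.77 ± 1.40 CPM in PND mice (SD, n = 2 each), with a log2 fold change of 0.67 (SE 0.31). Left out in turn, the mice gave values from 0.33 to 0.95.

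Hbb-bt had 5 and 1 counts in control mice and 11 and 2 in PND mice, and the ratio of PND to control mice over the pooled counts was 2.34 (0.831 to 7.52). Hba-a1 had 55 and 37 counts in control mice and 55 and 44 in PND mice, or 3.19 and 2.02 CPM against 3.44 and 2.60 CPM. The groups overlapped, and the log2 fold change was 0.22 (SE 0.32), ranging from -0.08 to 0.57 as each mouse was left out. Hba-a2 had 7 and 3 counts in control mice and 3 and 1 in PND mice, with a pooled ratio of 0.433 (0.0991 to 1.5).

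Alas2 had 19 and 7 counts in control mice and 17 and 12 in PND mice, or 1.10 and 0.382 CPM against 1.06 and 0.710 CPM. The PND mice lay between the control mice. Its log2 fold change of 0.27 was below its SE of 0.56, and it turned to -0.32 without control mouse 2 and to -0.06 without PND mouse 1, and was 1.19 without control mouse 1.

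The summed level of the 4 globin genes was 7.42 and 4.70 CPM in control mice and 10.1 and 6.57 CPM in PND mice. From the highest to the lowest, the order was PND mouse 1, control mouse 1, PND mouse 2 and control mouse 2, and the counting intervals of each pair of neighbours in this order overlapped. The log2 ratio of the group means was 0.46, against an SD of 0.45 between replicates, so the difference was about as large as that spread. This ratio ranged from 0.10 without PND mouse 1 to 0.82 without control mouse 1, and was 0.21 with Hbb-bs left out of the sum. The second mouse of each group had less than the first, with a ratio of 0.652 (0.507 to 0.835) in PND mice and 0.633 (0.476 to 0.839) in control mice.

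With the trends of length and GC content fitted, the log2 fold changes were 0.44 for Hba-a1, 0.69 for Hbb-bs and 0.43 for Alas2. Beta chain counts exceeded alpha chain counts in every mouse. More of the alpha than of the beta windows are shared between copies, and the part of this was not tested. The ratio of beta to alpha was 1.07 (0.741 to 1.53) and 1.15 (0.736 to 1.80) in control mice and 1.78 (1.28 to 2.49) and 1.47 (0.989 to 2.19) in PND mice. It was higher in both PND mice, but the intervals of all 4 mice overlapped. The alpha sum itself was 3.59 and 2.19 CPM in control mice and 3.63 and 2.66 CPM in PND mice, whereas the beta sum was 3.83 and 2.51 CPM against 6.45 and 3.91 CPM. Of the counts of each pair, Hba-a1 held 88.7% to 97.8% and Hbb-bs 89.3% to 97.8%.

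Other genes of red cells gave no call by edgeR or DESeq2. Of 8 further globin genes, 3 were in the table and 1, Hbq1b, was tested, with 0.406 and 1.15 CPM in control mice and 0.814 and 0.355 CPM in PND mice. Hbq1b and its copy Hbq1a (5 and 14 counts against 6 and 3) were highest in control mouse 2, where the sum of the 4 adult globins was lowest. Neither edgeR nor DESeq2 called Hbq1b, and its unadjusted p-value was not under 0.05.

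Of 28 other red cell genes, 24 were in the table and 14 were tested, and none was called by edgeR or DESeq2. Of these, 9 had an unadjusted p-value under 0.05 and 5 an adjusted one under 0.05 with a fold change inside the thresholds. The median log2 fold change was -0.14. Sptb, which encodes a spectrin of the red cell skeleton and is also expressed in neurons, was at 386 and 391 CPM in control mice and 297 and 282 CPM in PND mice (log2 fold change -0.43, SE 0.06, adjusted p = 0.0058 by edgeR). The value of Sptb was -0.16 (adjusted p = 0.166 by edgeR) with the trends of length and GC content fitted, and 1 gene of the list was then called lower. Genes used mostly by red cells had few counts and differed in direction. Slc4a1 (band 3) had 6 and 3 counts in control mice and 0 and 1 in PND mice, whereas Ermap, a red cell membrane protein, had 6 and 9 counts in control mice and 19 and 13 in PND mice (log2 fold change 1.19, SE 0.47, adjusted p = 0.114 by edgeR). Car1, the red cell carbonic anhydrase, had 0 and 0 counts against 2 and 1, and Rhd had 0 and 0 against 5 and 0. Hemgn and Epb42 had at most 1 count in any mouse.

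Alas2 is one of several enzymes of heme synthesis, and the 8 others on the list were all tested without a call by edgeR or DESeq2. Of the 8, 3 had an unadjusted p-value under 0.05, and 7 had a negative log2 fold change, with a median of -0.19. Alas1, the form of the first enzyme used outside red cells, was at 81.1 and 84.9 CPM in control mice and 65.2 and 70.3 CPM in PND mice (log2 fold change -0.29, SE 0.07, adjusted p = 0.032 by edgeR), which is inside the fold threshold. With the trends of length and GC content fitted, its value was -0.12 (adjusted p = 0.345 by edgeR). Fech, the last enzyme, had a log2 fold change of -0.09 (SE 0.07, adjusted p = 0.426 by edgeR).

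Of 12 genes that clear hemoglobin, heme and iron, 11 were in the table and 10 were tested, and edgeR called 1 lower, while DESeq2 called 2, Lrp1 and Ftl1. Ftl1 encodes the light chain of the iron store ferritin, and had 20.4 and 24.4 CPM in control mice and 14.2 and 14.1 CPM in PND mice (log2 fold change -0.66, SE 0.13, adjusted p = 0.0146 by edgeR). It passed neither after the correction for transcript length and GC content nor without control mouse 2 (adjusted p = 0.065), and 42.3% of its 75-nt windows are shared with other genes, pseudogenes among them. Lrp1, an uptake receptor for heme bound to hemopexin, was at 843 and 967 CPM in control mice and 589 and 624 CPM in PND mice (log2 fold change -0.58, SE 0.08, adjusted p = 0.0060 by edgeR), just inside the fold threshold, and had an adjusted p of 0.0668 with the trends of length and GC content fitted. The heavy chain Fth1 had a log2 fold change of -0.36 (SE 0.07, adjusted p = 0.0143 by edgeR). Hmox1, the heme-degrading enzyme induced by free heme, was level at 5.56 and 6.56 CPM in control mice and 5.82 and 7.22 CPM in PND mice.

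Neutrophil and hemoglobin transcripts did not follow each other across the mice. The order of the 4 mice in the neutrophil sum was the reverse of their order in the hemoglobin sum. The neutrophil genes had 1.19 (0.933 to 1.51) and 3.04 (2.37 to 3.92) counts per globin count in control mice, and 0.205 (0.137 to 0.300) and 1.40 (1.09 to 1.80) in PND mice. PND mouse 1 was thus lowest and control mouse 2 highest, while PND mouse 2 and control mouse 1 had overlapping intervals. The size of these ratios may also depend on how reads shared by globin copies were counted, which is not known.

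**Figure D4:**
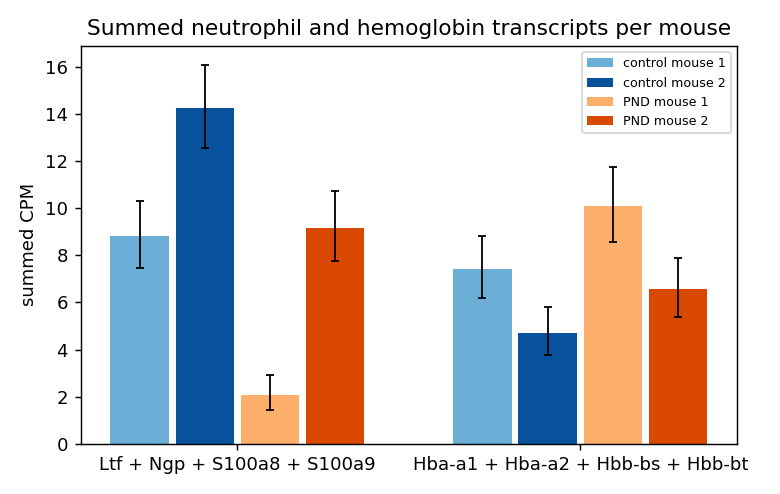
Summed CPM of the 4 neutrophil genes and of the 4 globin genes in each mouse, with control mice in blue, PND mice in orange and bars for the 95% exact Poisson interval. The neutrophil sum runs from 2.07 CPM in PND mouse 1 to 14.3 CPM in control mouse 2, and the same mice have the highest (10.1 CPM) and the lowest (4.70 CPM) hemoglobin sum.

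Markers of the other cells that blood or the dissected tissue could bring were low or uneven as well. Of 12 platelet genes, 4 were tested and none was called by edgeR or DESeq2. All 4 had a negative log2 fold change, with a median of -0.57. Gp5, the 1 gene with an unadjusted p-value under 0.05, had 38 and 39 counts in control mice and 18 and 17 in PND mice. Its log2 fold change was -1.02 (SE 0.31, adjusted p = 0.055 by edgeR). The summed level of the 12 genes was 13.04 and 16.3 CPM in control mice and 10.5 and 11.3 CPM in PND mice. Gp1bb and Itga2b were the most abundant of these, but 89.5% of the windows of Gp1bb are shared with Sept5 and Gm49601, which overlap it on the same strand. Pf4, which encodes the platelet chemokine platelet factor 4, had 3 and 4 counts in control mice and 7 and 18 in PND mice, too few to be tested, and was called higher without PND mouse 1. Of 17 lymphocyte genes, 14 were in the table and 3 were tested, with no call and no unadjusted p-value under 0.05. Their sums of 29.4 and 20.2 CPM against 21.8 and 21.7 CPM were mostly Ighm. Igkc, an antibody light chain, had 24 and 50 counts in control mice and 4 and 73 in PND mice, and was thus lowest in PND mouse 1. Its log2 fold change was 0.16 with all mice, -3.01 without PND mouse 2 and 1.04 without PND mouse 1.

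Of 12 genes of blood monocytes, 11 were in the table and 6 were tested, and 1, Itgam, was called higher. Itgam encodes CD11b, which neutrophils, monocytes and microglia carry, and it had 2.78 and 2.13 CPM in control mice and 5.45 and 5.56 CPM in PND mice (log2 fold change 1.17, SE 0.24, adjusted p = 0.0165 by edgeR). It was not called by DESeq2, and its log2 fold change stayed near this size where the adjusted p-value missed the threshold, at 1.14 after the correction for length and GC content (adjusted p = 0.0544 by edgeR) and 0.98 without control mouse 2 (adjusted p = 0.083). Of its windows, 65.2% are shared with Gm49368, which overlaps it on the same strand. The chemokine receptor Ccr2 had 5 and 8 counts in control mice and 4 and 42 in PND mice. Of 8 genes of macrophages at the brain's borders, 7 were highest in PND mouse 2, and none of the 5 tested was called by edgeR or DESeq2 (1 had an unadjusted p-value under 0.05). Mrc1 and Lyve1 were called higher by edgeR with the replicate number as a block and without PND mouse 1, and Ccr2, F13a1 and Lyz2 joined Itgam among the monocyte genes without PND mouse 1.

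All 8 meningeal genes were highest in PND mouse 2, and their sums were 116 and 291 CPM in control mice and 151 and 482 CPM in PND mice. None was called by edgeR, 3 had an unadjusted p-value under 0.05, and DESeq2 called 1, Col1a1, higher. There were 3 called higher with the replicate number as a block, and 7 without PND mouse 1. Igf2 and Dcn were the most abundant of them. The 8 choroid plexus genes summed to 130 and 5483 CPM in control mice and 2059 and 3492 CPM in PND mice, all 8 being lowest in control mouse 1, and none was called or had an unadjusted p-value under 0.05. All 8 were called higher without control mouse 2, and 6 were called lower without control mouse 1. The neutrophil sum was higher in the second mouse of each group, as were the meningeal and choroid plexus sums. The part of these tissues in the neutrophil counts was not tested.

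Vessel genes were called in 2 cases. Of 12 endothelial genes, Slco1a4, a transporter of the blood-brain barrier, was called higher (log2 fold change 0.87, SE 0.17, adjusted p = 0.0137 by edgeR), though not with no filter on low counts, and of 8 mural cell genes, the pericyte gene Rgs5 was called higher (0.73, SE 0.09, adjusted p = 0.0053 by edgeR). The endothelial sums were 401 and 472 CPM in control mice and 411 and 554 CPM in PND mice, and 10 of the 12 genes were highest in PND mouse 2. Without PND mouse 1, 4 endothelial and 4 mural genes were called higher. The part of the amount of vessel in the hemoglobin counts was not tested, and PND mouse 1, which had the highest hemoglobin sum, had the second lowest endothelial sum.

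The lists of the tissue itself varied less between replicates. The 10 microglial genes summed to 309 to 323 CPM over the 4 mice, and 1, P2ry12, was called higher (log2 fold change 0.84, SE 0.10, adjusted p = 0.0046 by edgeR). The 10 neuronal genes, mostly Camk2a, summed to 6434 and 6241 CPM in control mice and 5464 and 5292 CPM in PND mice. The log2 ratio was -0.24, against an SD of 0.03 between replicates, and 7 genes had an unadjusted p-value under 0.05. Their median log2 fold change was -0.22, and 0.04 with the trends of length and GC content fitted. The CA1 genes Fibcd1 (-0.64, SE 0.06, adjusted p = 0.0043 by edgeR) and Wfs1 (-0.70, SE 0.12, adjusted p = 0.0085 by edgeR) were called lower. Without PND mouse 2, Wfs1 (-0.55) lay inside the fold threshold and was not called. After correction for length and GC content, none of the 7 genes called in these lists was called. Itgam kept its fold change, whereas the log2 fold changes of P2ry12 (0.21), Rgs5 (0.28), Slco1a4 (0.36), Wfs1 (-0.41), Ftl1 (-0.40) and Fibcd1 (-0.32, adjusted p = 0.0469 by edgeR) came closer to 0.

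**Figure D5:**
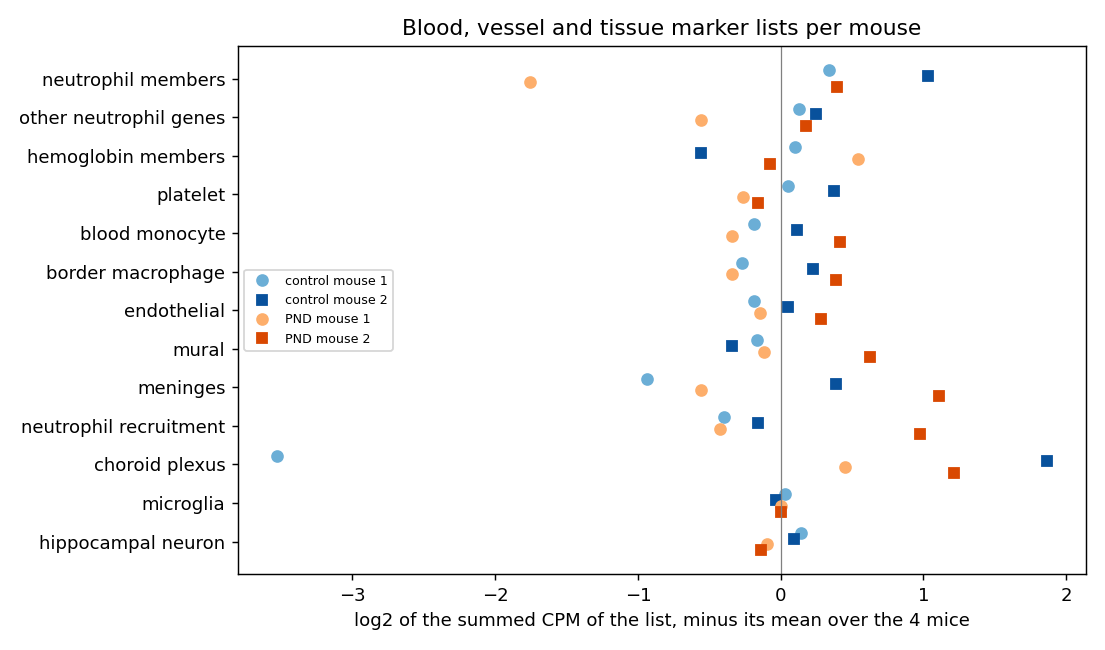
Log2 of the summed CPM of 13 gene lists in each mouse, minus the mean of the list over the 4 mice, with control mice in blue and PND mice in orange. PND mouse 1 is the lowest in the neutrophil genes (2.07 CPM), PND mouse 2 the highest in the meningeal genes (482 CPM) and the recruitment genes (81.2 CPM), and control mouse 1 the lowest in the choroid plexus genes (130 CPM).

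The genes most like the neutrophil and hemoglobin sums were sought among 15508 genes with a mean of at least 1 CPM, by the root mean square difference of log2 CPM centred on the mean of the 4 mice. The nearest to the neutrophil sum were Tssk6 (0.20), Tmprss6 (0.28), Cbln3 (0.31), Lcn2 (0.39) and Tmem52 (0.39). Lcn2 is the only neutrophil gene among these 5. The nearest to the hemoglobin sum were Lrrc55 (0.01), Tac1 (0.04), Gm18310 (0.04), Zfp607a (0.05) and Atf3 (0.05), none of which is a red cell gene.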

How the data were processed

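The authors filtered the paired-end reads, aligned them against mm10 using HISAT, and deposited raw counts per gene for each mouse, without normalization. The submitters' processing notes also name HISAT2 2.1.0, HTSeq 0.6.0, Bowtie2 2.2.3 and TopHat2, with no role. The annotation release, the use of strand and the handling of reads with several matches are not given in the sources used here. The deposited columns of the authors' own comparison (fold changes and p-values) were not used.

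The analysis used R 4.3.3 and edgeR 4.0.16 (filterByExpr with a minimum count of 10, TMM, the quasi-likelihood F test with condition as the only term and Benjamini-Hochberg adjustment over 17144 genes), with limma 3.58.1 and DESeq2 1.42.0 as an alternative. CPM are scaled by the TMM library sizes. Length and GC trends were fitted with mgcv 1.9.3. Gene models, GC contents and overlaps came from GENCODE M21, where 29238 of the 29300 identifiers matched. The procedures were tested on simulated data. Each mouse is 1 replicate, so p-values measure the spread between 2 mice per group. The members and gene lists were chosen with earlier results of these data known. The genes named are the 9 members and, from each other list, those called (at most 4) and the 2 with the highest mean CPM, apart from an item that is not reported here. The text also names genes chosen after their values were seen, among them Lcn2, Camp, Retnlg, Cd177, Anxa1, Sele, Il1b, Gp5, Ccr2, Slc4a1, Ermap, Car1 and Rhd. Genes listed for a cell type but missing from the table, such as Ahsp and Ms4a1, were not analysed here.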

Additional observations from a re-analysis of the deposited data

How the results depend on the processing

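Of 79 alternative values of the members' fold changes, 69 differed from the value with all mice by less than the spread between replicates, 5 moved further and 5 changed sign. That spread was wide for the neutrophil genes. S100a8 at -0.06 without PND mouse 1, against -0.92 with all mice, was therefore among the 69, and this count is no measure of stability. The changed signs were S100a8 without control mouse 2 (0.32), Hba-a1 without control mouse 2 (-0.0849) and without PND mouse 1 (-0.0088), and Alas2 without control mouse 2 (-0.32) and without PND mouse 1 (-0.06). As each mouse was left out, the fold changes ranged from -3.97 to 0.32 for S100a8, from -0.0849 to 0.57 for Hba-a1 and from -0.32 to 1.19 for Alas2. With a mouse left out, its group has 1 mouse, whose spread is assumed to be that of the other group. The log2 ratio of the neutrophil sums (-1.04) ranged from -2.48 to -0.35 and that of the hemoglobin sums (0.46) from 0.10 to 0.82 as each mouse was left out.

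Genes called higher numbered 1158 and lower 386. These counts were 92 and 125 with offsets for length and GC content, 2249 and 2201 with no fold threshold, and 754 to 1312 and 254 to 614 as each mouse was left out. Scaling by library totals alone gave 1376 higher and 227 lower. In the other lists, 4 genes were called higher and 3 lower. With offsets for length and GC content these were 0 and 1, with no fold threshold 8 and 13, by DESeq2 4 and 5, and as each mouse was left out 5 to 28 and 2 to 13. Among the other neutrophil genes, called in neither direction, DESeq2 gave 1 lower (Pglyrp1), and leaving out a mouse gave 0 to 1 higher (Anxa1 without PND mouse 1) and 0 to 2 lower (Lcn2 and Pglyrp1 without PND mouse 2). The labels do not say that a replicate number marks a shared batch or day, and with 2 pairs the correlation across genes of their differences (r = 0.22) does not settle whether the numbers pair the mice. With the replicate number as a block, 11 genes of the other lists were called higher and 5 lower, of which 1 is a neutrophil gene (Pglyrp1), and the counts over all genes were 1289 higher and 427 lower. The cause of these changes was not tested. Between 1 and 92 counts stood behind each member in a mouse, and the spread between mice went beyond counting error in the neutrophil and hemoglobin sums.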
